A study of Drosophila melanogaster with 75 samples.

Results

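The Cpr genes of Drosophila melanogaster encode cuticle proteins with the Rebers and Riddiford (RR) consensus, and each is named after the cytological band in which it lies. Every gene whose symbol in the array annotation starts with Cpr and a digit was taken as a member, given by a probe set that the annotation assigns to that gene alone and, where there were several, by the brightest. This gave 66 Cpr genes of 11982 genes with a probe set of their own. The current annotation lists 70 Cpr genes, and the 4 others (Cpr57A, Cpr65Ax1, Cpr65Ax2 and Cpr65Ay) had no probe set of their own.

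RNA came from heads of isogenized Canton-S males that were 5 days old, in 15 pools of 30 heads, each hybridized to 1 Drosophila Genome 2.0 array (Affymetrix). The mated males (5 pools) had been placed with a virgin female, the courted males (5 pools) with a cauterized virgin female and the control males (5 pools) with no female. A male of every group was collected 2 hrs after the mated male had finished copulating. Genotype, age and housing were shared by the groups. In the main fits the p-values rest on the spread between pools that is left after group and replicate number. Whole heads mix many cell types, so fewer cells of a type and less RNA per cell cannot be told apart.

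Insect cuticle is a layer of chitin fibres embedded in protein, secreted by the epidermis beneath it, and it also forms the bristles, the lining of the tracheae and foregut, and the corneal lens over each facet of the eye. The RR consensus binds chitin. Flies carry many such genes, often side by side in the genome, and different genes serve larval, pupal and adult cuticle. Most cuticle is laid down before the adult emerges, and further layers are added in the first days of adult life. The array therefore asks which members of the family still had transcripts in adult male heads and whether these differed after courtship or mating.

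Levels are GC-RMA intensities, the authors' R/Bioconductor version, in which background is modelled from the base composition of each probe. They depend on the probe set as well as on the transcript, so a difference in level between genes is not read as a difference in the amount of transcript. A mean above 100 over the 15 arrays was the threshold for expression. The 15 arrays resembled each other closely, with correlations between pairs of arrays of 0.961 to 0.995 over the probe sets above the threshold, and between 40.1% and 40.9% of probe sets exceeded 100 on each.

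Of the 66 Cpr genes, 11 (16.7%) were above the threshold, against 40.7% of all 18769 probe sets. The 11 were Cpr47Ee, Cpr49Ae, Cpr51A, Cpr60D, Cpr62Bb, Cpr65Au, Cpr67B, Cpr72Ec, Cpr73D, Cpr76Bc and Cpr100A, and each exceeded 100 on every one of the 15 arrays. Cpr72Ec is a component of the corneal lens. Its mean intensity was 11780 (range 9384 to 13953). Cpr65Au averaged 16736 (14056 to 18094), Cpr49Ae 3979 (3522 to 4322) and Cpr67B 1967 (1642 to 2317). Those of Cpr47Ee, Cpr100A and Cpr62Bb were 1563, 1327 and 756. The 3 nearest the threshold on its upper side were Cpr51A (233), Cpr60D (212) and Cpr76Bc (193), and Cpr73D averaged 294.

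Most of the family lay far below the threshold. The mean was under 10 for 48 genes and between 10 and 100 for only 7. The 3 nearest the threshold on its lower side were Cpr11B (mean 87.2, range 60.1 to 125.9), Cpr49Ag (62.8) and Cpr97Eb (60.3), and Cpr11B was the only Cpr gene with some arrays above 100 and others below. The other 4 were Cpr47Ea (29.7), Cpr62Bc (26.1), Cpr66D (15.5) and Cpr64Ad (10.8). Cpr66D, like Cpr72Ec, is a component of the corneal lens. The median over the 66 genes was 4.72, against 8.20 over all probe sets. Of the 66 genes, 35 had a mean of 5 or less, and a transcript present in few cells of the head may not be detectable at such signals.

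**Figure D1:**
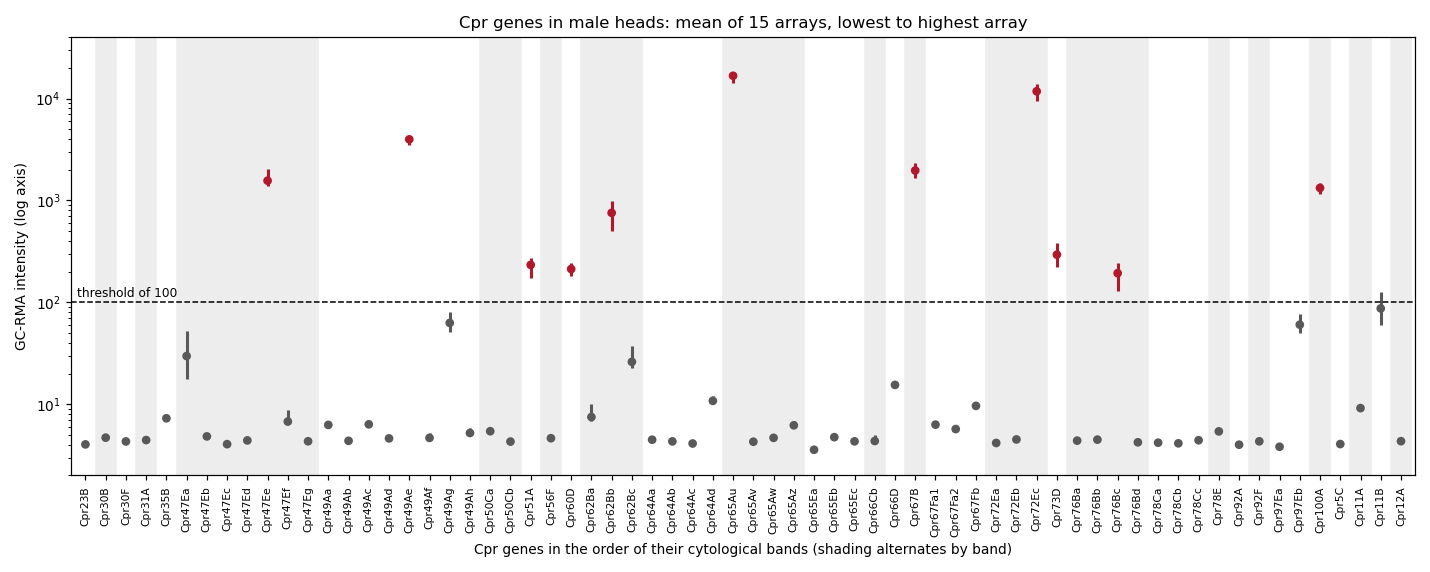
GC-RMA intensity (log axis) of the 66 Cpr genes, in the order of their cytological bands from the second chromosome to the X, with points for the mean of 15 arrays, lines from the lowest to the highest array, shading that alternates by band and red for genes with a mean above 100. The 11 red genes stand apart from 48 genes with means under 10, with 7 genes between.

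How many Cpr genes passed depended on the algorithm. At a threshold of 100, 14 passed in MAS5.0 (21.2%, against 45.4% of all probe sets) and 13 in GeneSpring GC-RMA (19.7%, against 43.1%). At the authors' threshold of 50 for dChip, 26 passed in dChip PM-MM (39.4%, against 54.5%) and 60 in dChip PM (90.9%, against 82.8%). The share of Cpr genes was thus below that of all probe sets in every algorithm but dChip PM, where it was above. All 11 were above the threshold in every algorithm. Their order of mean level was close between algorithms, with Spearman correlations across these 11 genes of 0.93 (dChip PM), 0.95 (MAS5.0), 0.90 (dChip PM-MM) and 1 (GeneSpring GC-RMA) with R/Bioconductor GC-RMA. Over all 66 genes these correlations were 0.51 to 0.72.

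In the bands that hold several Cpr genes, no more than 1 of them was above the threshold in R/Bioconductor GC-RMA. There were 12 such bands with 46 genes, and 6 of them held exactly 1 expressed gene: Cpr47Ee of 7 at 47E, Cpr49Ae of 8 at 49A, Cpr62Bb of 3 at 62B, Cpr65Au of 4 at 65A, Cpr72Ec of 3 at 72E and Cpr76Bc of 4 at 76B. At 72E the neighbours Cpr72Ea and Cpr72Eb averaged 4.17 and 4.51, and at 76B the 3 neighbours of Cpr76Bc averaged 4.23 to 4.49. At 65A the 3 others lay between 4.28 and 6.21, and up to 10 other protein-coding genes stand between neighbouring Cpr genes there. At 47E, 49A and 62B the others averaged up to 29.7 (Cpr47Ea), 62.8 (Cpr49Ag) and 26.1 (Cpr62Bc). The bands 50C, 64A, 65E, 67F, 78C and 97E held none. Other algorithms put more than 1 gene of a band above their threshold, in 1 band of the 12 in GeneSpring GC-RMA (Cpr49Ag beside Cpr49Ae), 2 in MAS5.0 (also Cpr62Bc beside Cpr62Bb), 6 in dChip PM-MM and 11 in dChip PM. Of the 20 Cpr genes alone in their band, 5 were above the threshold (Cpr51A, Cpr60D, Cpr67B, Cpr73D and Cpr100A).

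Some probe sets name more than 1 gene and were left out of these counts. Cpr57A shares a pair of probe sets with Obp57d, an odorant-binding protein gene, with means of 716 and 21.7, which cannot be assigned to either gene. The probe set of Cpr65Ax1 and Cpr65Ax2 averaged 4.30, and one that Cpr67Fa1 and Cpr67Fa2 share averaged 4.66. Cpr47Ef alone had 2 probe sets of its own, at 6.76 and 4.43.

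Other cuticle genes give the surroundings of these values. Of 14 further RR genes with symbols of older type (the larval Lcp, pupal Edg and Pcp, Ccp84A, Acp65Aa and resilin genes), 0 were above the threshold, and Acp65Aa, an adult cuticle gene, averaged 15.7. Resilin, the rubber-like protein of elastic cuticle, averaged 4.73. Of 25 Tweedle genes, another family of cuticle proteins, 2 passed, TwdlG (177) and TwdlT (143). Of 27 genes of chitin synthesis and remodelling, 13 passed. Among these were Gasp, a chitin-binding protein, at 1839 and mmy, which makes the UDP sugar from which chitin is built, at 1493. The chitin synthases kkv (5.26) and Chs2 (4.29) did not pass. Of 20 genes of cuticle tanning, 13 passed, with Pu (GTP cyclohydrolase) at 5566, Ddc (dopa decarboxylase) at 3929 and t (tan) at 7363, all of which also act in neurons or the eye. Retinin, a further corneal lens protein, averaged 25805.

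The other cell types of the head were represented. All 3 photoreceptor markers measured (trp, inaC and Arr2), all 5 glial, all 6 haemocyte and 4 of 5 fat body markers passed, but of 4 neuronal markers only nSyb did (1806, with elav at 10.2, brp at 62.0 and para at 5.85). None of 10 accessory gland, 10 testis or 12 midgut markers exceeded a mean of 10. Of 5 flight muscle markers, sls (454) and up (304) passed, but Act88F (77.0), fln (29.9) and TpnC4 (5.76) did not.

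The first comparison asks whether Cpr transcripts differed after mating. In limma, fitted on the 7631 probe sets above the threshold with the replicate number as a block, 0 of the 11 expressed Cpr genes differed between mated and control heads at an adjusted p under 0.05, and 0% of all probe sets did. An unadjusted p under 0.05 was reached by 9.53% of all probe sets and by 1 Cpr gene (0 without the block). Of the 11, 9 were higher in mated heads, with a median difference of 0.02 on the log2 scale, against -0.01 over all probe sets. This count of 9 fell to 6 without replicate 2 and without replicate 5. The share of all probe sets that were higher was not counted, so the 9 are not read as a shift of the family. The same direction in all 5 pairs was seen for 10.2% of all probe sets and for 0 of the 11 Cpr genes. Other tools called 37 (a Cyber-T style paired test), 9 (limma-trend) and 8 (the mean of 5 algorithms) probe sets, and no Cpr gene was among them.

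Cpr76Bc had the lowest p. Its log2 intensity was 7.26, 7.72, 7.79, 7.63 and 7.83 in mated heads and 7.37, 7.31, 7.79, 7.26 and 7.34 in control heads. Control replicate 3 lay within the upper part of the mated range and mated replicate 1 within the control range. The difference was 0.23 ± 0.10 (SE, 95% interval 0.01 to 0.46, higher in 3 of 5 pairs, adjusted p = 0.51 in limma). Leaving out replicate 3 gave 0.29 (adjusted p = 0.72), and leaving out replicate 1 gave 0.31 (0.45).

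The other 4 of lowest p differed by less. Cpr49Ae stood at 11.88, 12.07, 12.06, 12.01 and 12.02 in mated heads and at 11.78, 11.91, 12.08, 11.84 and 11.96 in control heads, a difference of 0.09 ± 0.05 (SE, higher in 4 of 5 pairs, adjusted p = 0.53 in limma). Cpr62Bb differed by 0.12 ± 0.07 (4 of 5 pairs, adjusted p = 0.57, and 0.06 ± 0.06 without replicate 2), Cpr51A by -0.14 ± 0.09 (2 of 5 pairs, 0.61, and -0.05 ± 0.07 without replicate 1) and Cpr67B by 0.06 ± 0.06 (3 of 5 pairs, 0.71, and between 0.03 and 0.10 with each replicate left out). For the corneal lens gene Cpr72Ec the difference was 0.01, with a 95% interval of -0.16 to 0.19. All 11 had overlapping groups, and the share of all tested probe sets whose groups overlap was not counted.

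**Figure D2:**
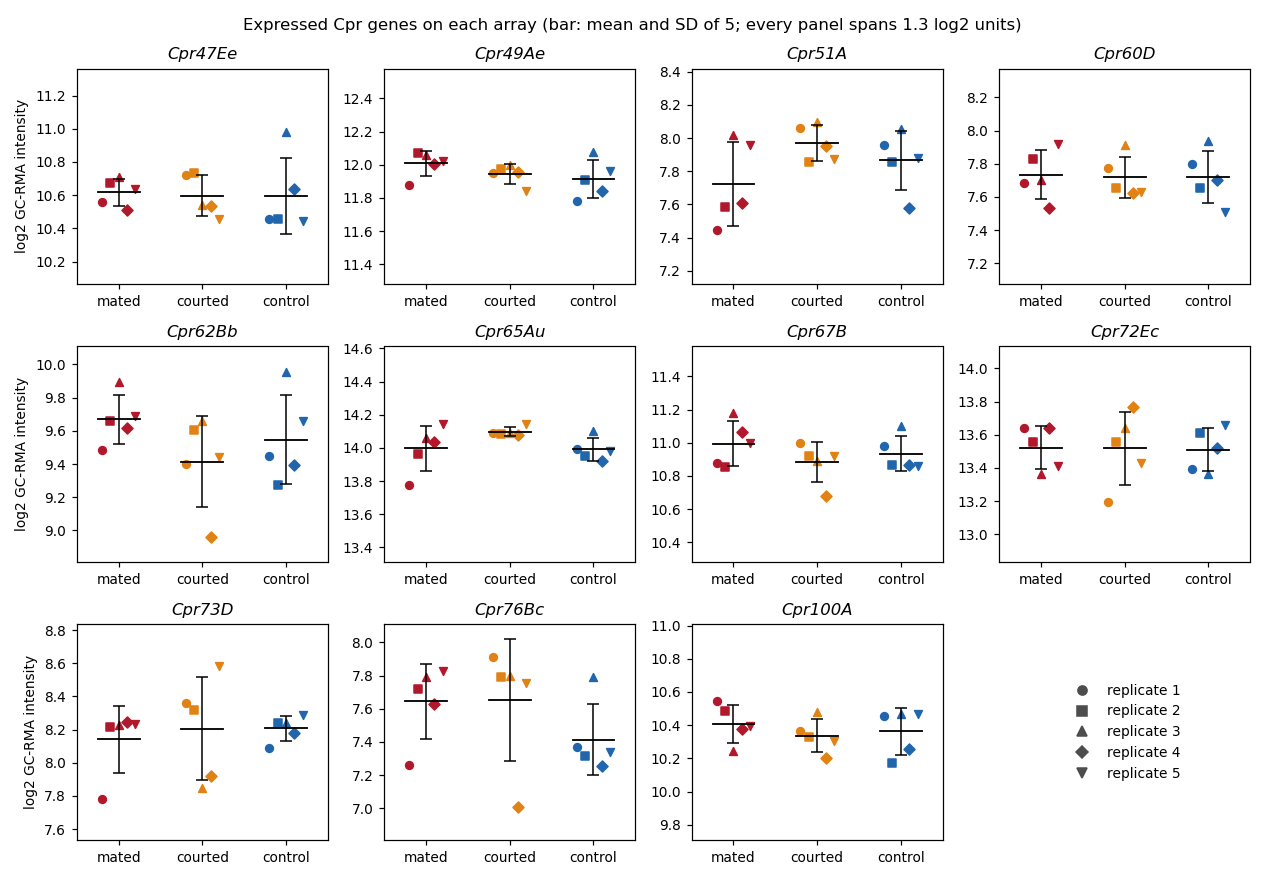
Log2 GC-RMA intensity of the 11 expressed Cpr genes on each array in mated, courted and control heads, with a symbol per replicate number and bars for the mean and SD of 5 arrays. Every panel spans the same range of log2 units, and the 3 groups overlap in each.

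The second comparison asks whether exposure to a cauterized female without copulation gave a difference. Between courted and control heads, limma called 0 of the 11 Cpr genes and 0% of all probe sets. An unadjusted p under 0.05 was reached by 3.3% of all probe sets and by 0 of the Cpr genes (1 with limma-trend), and the Cyber-T style test and limma-trend called 0 probe sets. The same direction in all 5 pairs was seen for 5.48% of all probe sets and for 0 Cpr genes, and 6 of the 11 were higher in courted heads. Same-numbered courted and control arrays did not consistently deviate together over the tested probe sets (correlations of -0.31 to 0.33), so a pair here is a shared number only. Without the block 0 Cpr genes were called as well.

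Cpr65Au had the lowest p here. Its log2 intensity was 14.09, 14.08, 14.09, 14.08 and 14.14 in courted heads and 13.99, 13.95, 14.10, 13.92 and 13.98 in control heads, so that only control replicate 3 reached the courted range. The courted pools were closer together (SD 0.027) than the control pools (SD 0.068). The difference was 0.11 ± 0.05 (SE, 95% interval -0.02 to 0.23, higher in 4 of 5 pairs, adjusted p = 0.99 in limma). Cpr76Bc stood at 7.91, 7.79, 7.80, 7.01 and 7.76 in courted heads, with replicate 4 below every control pool. The other 4 courted pools lay above every control pool except replicate 3, and replicates 1 and 3 lay above that one too. The difference from control heads was 0.24 ± 0.13 (4 of 5 pairs, adjusted p = 0.99), and 0.36 ± 0.10 without replicate 4 (0.99). Cpr51A differed by 0.10 (0.04 without replicate 4), Cpr62Bb by -0.13 (-0.06 without replicate 4 and -0.25 without replicate 2) and Cpr67B by -0.05, all at an adjusted p of 0.99. For Cpr67B the direction turned in dChip PM (0.0066) and GeneSpring GC-RMA (0.0070), and the value lay between -0.08 and -0.01 with each replicate left out.

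The third comparison sets mated beside courted heads. The courted males had met a cauterized female, so copulation and the state of the female cannot be told apart in it. Between mated and courted heads, limma called 0 of the 11 Cpr genes and 0% of all probe sets, and 3.38% of all probe sets reached an unadjusted p under 0.05, as did 1 Cpr gene. The same direction in all 5 pairs was seen for 5.99% of all probe sets and for 2 Cpr genes, Cpr62Bb and Cpr65Au. Same-numbered mated and courted arrays did not deviate together over the tested probe sets (correlations of -0.45 to 0.16), so a pair here is a shared number only. Without the block 0 Cpr genes were called as well, and 0 reached an unadjusted p under 0.05. The Cyber-T style test called 3 probe sets and limma-trend 0, with no Cpr gene among them.

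Cpr62Bb was higher in mated heads in 5 of 5 pairs. Its log2 intensity was 9.49, 9.66, 9.89, 9.62 and 9.69 in mated heads and 9.40, 9.60, 9.66, 8.96 and 9.44 in courted heads. The groups overlapped, and courted replicate 4 was the lowest of all 15 arrays. The difference was 0.26 ± 0.09 (SE, 95% interval 0.03 to 0.48, adjusted p = 0.98 in limma), and 0.16 ± 0.05 without replicate 4 (adjusted p = 0.998). Both fits used the block, although same-numbered arrays of these groups did not deviate together. The summed intensity of the 6 haemocyte markers was 7910 to 9724 in mated, 7677 to 9519 in courted and 6811 to 8964 in control heads, and its part in this difference was not tested.

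Cpr65Au was lower in mated heads in 5 of 5 pairs, at 13.78, 13.96, 14.06, 14.04 and 14.14, against the courted values above. The difference was -0.10 ± 0.06 (adjusted p = 0.98 in limma), -0.05 ± 0.05 without replicate 1, and 0.0024 in MAS5.0. Cpr51A stood at 7.44, 7.59, 8.02, 7.61 and 7.96 in mated heads and at 8.06, 7.86, 8.09, 7.95 and 7.87 in courted heads, a difference of -0.25 ± 0.10 (1 of 5 pairs higher, adjusted p = 0.98), and of -0.15 ± 0.09 without replicate 1. Cpr67B differed by 0.11 (0.04 to 0.17 with each replicate left out) and Cpr49Ae by 0.07 (0.04 to 0.10), both at an adjusted p of 0.98.

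**Figure D3:**
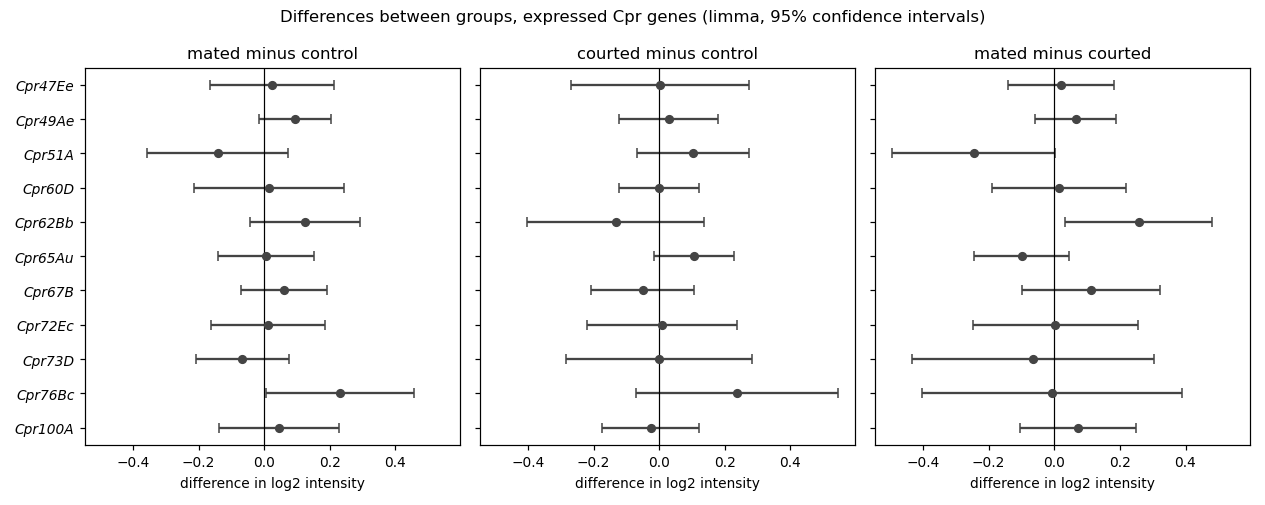
Difference in log2 intensity between groups for the 11 expressed Cpr genes, with 95% confidence intervals from limma, as mated minus control, courted minus control and mated minus courted. The widest bounds are -0.49 for Cpr51A in mated minus courted and 0.55 for Cpr76Bc in courted minus control.

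The related lists held no called gene either. With limma, 0 of the 13 expressed genes of chitin synthesis and remodelling were called in any comparison. In mated against control heads 9 of the 13 were higher, 4 of them at an unadjusted p under 0.05 (9.53% of all probe sets, 282 higher and 445 lower), with a median difference of 0.05. These 4 were Idgf1, a chitinase-like growth factor (0.21 ± 0.06, 5 of 5 pairs, adjusted p = 0.40), obst-A (0.19, adjusted p = 0.50), mmy (0.12, 0.51) and Cda5, of the chitin deacetylase family (0.16, 0.52). Of the 13 expressed tanning genes 0 were called, and 2 higher and 1 lower reached an unadjusted p under 0.05 in the same comparison, Pu at 0.18 (adjusted p = 0.38), t at 0.18 (0.51) and yellow-f2 at -0.18 (0.50). TwdlT, the Tweedle gene of lowest p, differed by 0.25 ± 0.10 between courted and control heads (4 of 5 pairs, adjusted p = 0.99).

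The 55 Cpr genes below the threshold were outside these tests. A fit on all 18769 probe sets also called 0 Cpr genes and 0 probe sets. An unadjusted p under 0.05 was reached by 5.38% of all probe sets in mated against control heads, 2.89% in courted against control heads and 2.86% in mated against courted heads, and by 2, 1 and 2 of the 66 Cpr genes. The median size of the difference among the 55 was 0.004, 0.006 and 0.003 on the log2 scale in the same order of comparisons. The largest differences of this set in size belonged to Cpr47Ea in both comparisons of mated heads.

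Cpr47Ea was singled out after its values were seen. Its log2 intensity was 4.78, 5.69, 5.72, 4.85 and 5.15 in mated heads, 4.30, 4.81, 4.94, 4.82 and 4.43 in courted heads, and 4.73, 4.63, 4.81, 4.15 and 4.58 in control heads. In linear terms this was 27.4 to 52.8 in mated, 19.8 to 30.7 in courted and 17.8 to 28.1 in control heads, far below 100. Mated replicates 2 and 3 were the highest of all 15 arrays, replicates 4 and 5 also lay above every control pool, and mated replicate 1 lay among the control pools. Mated heads were higher than control heads by 0.66 ± 0.16 (SE, 95% interval 0.23 to 1.08, 5 of 5 pairs, adjusted p = 0.77 in limma) and higher than courted heads by 0.58 ± 0.14 (5 of 5 pairs, adjusted p = 0.96). Courted and control heads differed by 0.08 ± 0.17 (3 of 5 pairs higher, adjusted p = 0.92).

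The difference of mated from control heads had the same direction in each algorithm for Cpr47Ea. It was 0.75 ± 0.13 in MAS5.0 (5 of 5 pairs), 0.62 ± 0.12 in GeneSpring GC-RMA (5 of 5), 0.49 ± 0.19 in dChip PM-MM (4 of 5) and 0.26 ± 0.08 in dChip PM (4 of 5). In MAS5.0 the intensity was 61.1 to 100.8 in mated heads and 38.0 to 59.8 in control heads. The share of all probe sets whose groups lie apart like this was not counted. Nor was the share that reach 5 of 5 pairs without the intensity filter. The adjusted p over all probe sets was between 0.46 and 0.79 in these 4 fits. Mated minus courted was smaller in the same algorithms than the 0.58 above, at 0.41 in MAS5.0, 0.35 in GeneSpring GC-RMA, 0.36 in dChip PM-MM and 0.19 in dChip PM. Courted minus control was 0.34 ± 0.13 in MAS5.0 (4 of 5 pairs, adjusted p = 0.999 in limma), 0.27 ± 0.16 in GeneSpring GC-RMA (4 of 5), 0.12 ± 0.20 in dChip PM-MM and 0.07 ± 0.08 in dChip PM (2 of 5 each). The summed intensity of the 5 fat body markers was 22113 to 27873 in mated, 17254 to 20763 in courted and 18832 to 22832 in control heads. Its genes differed in direction between mated and control heads, with fit at 0.56 and CG16772 at 0.70 (adjusted p = 0.11 each), and Lsp2 at -0.41 (0.32) and bmm at -0.29 (0.23). The paper lists fit, CG16772 and Lsp2 among its mating-responsive genes from these arrays. The sum is therefore not an independent measure of the amount of fat body. The summed intensity of the 5 glial markers was 21493 to 24823 in mated, 19810 to 22639 in courted and 19210 to 21621 in control heads. The part of these cell types in the values of Cpr47Ea and of the other Cpr genes was not tested. Cpr11B, the gene just below the threshold, was lower in mated than in courted heads by -0.29 ± 0.09 (0 of 5 pairs higher, adjusted p = 0.96).

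**Figure D4:**
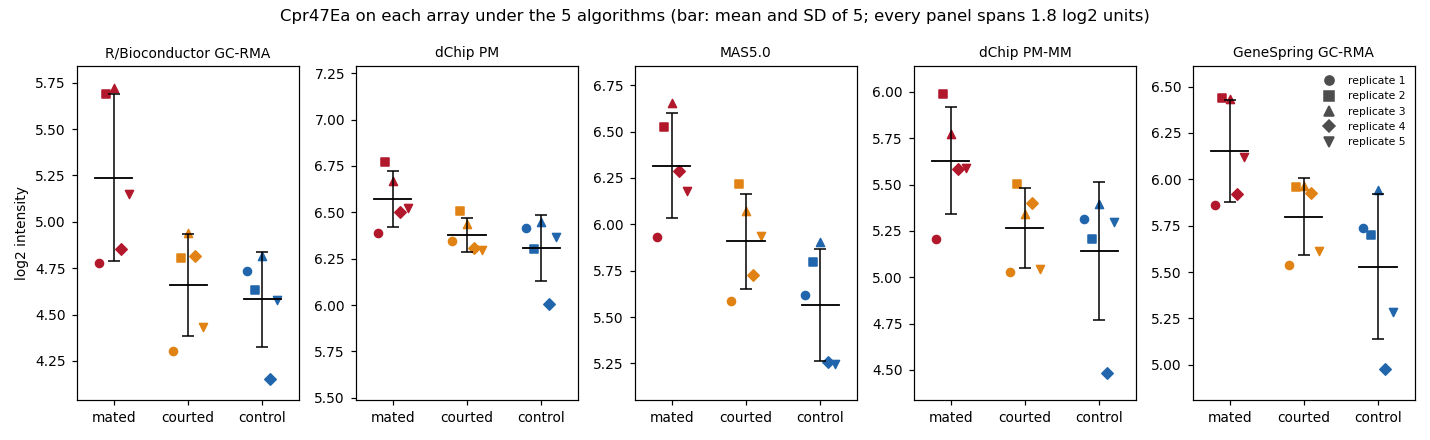
Log2 intensity of Cpr47Ea on each array in mated, courted and control heads under each of the 5 algorithms, with a symbol per replicate number and bars for the mean and SD of 5 arrays. The mated mean is the highest of the 3 groups in every panel. In MAS5.0 mated arrays span 61.1 to 100.8 and control arrays 38.0 to 59.8 in linear units.

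Pools of the same group differed among themselves. The SD within groups ranged from 0.087 (Cpr49Ae) to 0.28 (Cpr76Bc) on the log2 scale over the 11 genes, with a median of 0.16, against 0.13 over all tested probe sets. Cpr65Au (0.090), Cpr100A (0.12) and Cpr67B (0.12) varied little, and Cpr62Bb (0.24), Cpr73D (0.22) and Cpr51A (0.19) varied more.

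Deviations of several Cpr genes went together. Each array's deviation from its group mean was correlated between genes over the 15 arrays, which share RNA pool and normalization between genes, so these values are a description. Of the 55 pairs of expressed Cpr genes 41 had a correlation above 0 and 18 above 0.5, with a median of 0.33. How often pairs of all tested probe sets exceed 0.5 was not counted, so these counts are not read as particular to the Cpr genes. The median correlation of a single Cpr gene with all tested probe sets lay between -0.15 and 0.11. The highest of the 55 pairs were Cpr62Bb with Cpr76Bc (0.83), Cpr67B with Cpr76Bc (0.79), Cpr51A with Cpr65Au (0.75) and Cpr62Bb with Cpr67B (0.71).

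A few pools stood out across the genes. In control replicate 3, 10 of the 11 genes were above their group mean, by 0.41 for Cpr62Bb, 0.38 for Cpr47Ee and 0.38 for Cpr76Bc, and the exception was Cpr72Ec. In courted replicate 4 only 2 of the 11 were above the mean, with Cpr76Bc at -0.65 and Cpr62Bb at -0.45. Mated replicate 1 and control replicates 2 and 4 also had 2 of 11 above. The median deviation of all tested probe sets was between -0.03 and 0.05 on every array. Without the 3 arrays numbered 3, 11 pairs remained above 0.5 (median 0.21), and without those numbered 5 there were 24 (median 0.44). In the other algorithms 14 to 16 pairs were above 0.5, and 34 of the 55 pairs were above 0 in all 5 algorithms. Only 3 pairs were above 0.5 in all 5, Cpr62Bb with Cpr76Bc (0.67 to 0.89), Cpr62Bb with Cpr67B and Cpr51A with Cpr67B.

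Cpr72Ec, the corneal lens gene, ran against the others. Its correlations with the other 10 were all below 0, between -0.75 (with Cpr67B) and -0.04, and 8 or 9 of the 10 were below 0 in each other algorithm. With Cpr67B the value was between -0.81 and -0.39 over the algorithms. Its log2 intensity was 13.64, 13.55, 13.36, 13.64 and 13.41 in mated, 13.20, 13.56, 13.64, 13.77 and 13.43 in courted, and 13.39, 13.61, 13.37, 13.52 and 13.66 in control heads. It was highest in courted replicate 4, the pool in which Cpr62Bb and Cpr76Bc were lowest. Retinin, which serves the same lens, did not share this pattern, with a correlation of -0.37 with Cpr72Ec and 0.86 with Cpr62Bb.

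**Figure D5:**
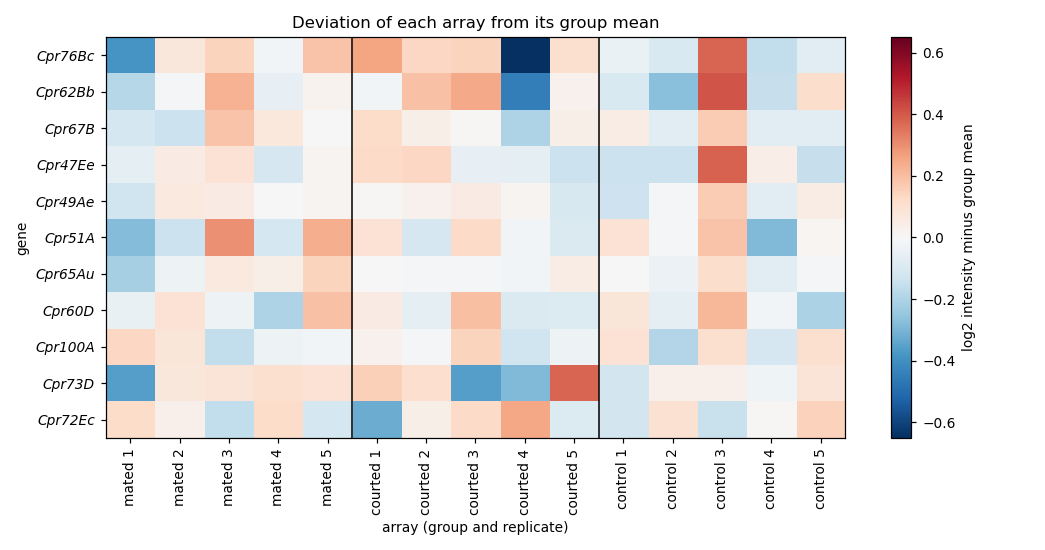
Deviation of log2 intensity from the group mean (colour scale in log2 units) for the 11 expressed Cpr genes on each of the 15 arrays, mated, courted and control from left to right. Genes were placed after their values were seen, with Cpr100A, Cpr73D and Cpr72Ec, which varied less with the others or against them, last. Control replicate 3 is above the mean for 10 of 11 genes, and courted replicate 4 holds the lowest values of Cpr76Bc and Cpr62Bb.

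The same deviations were set beside those of the expressed genes of each list, averaged over the list. Cpr62Bb had correlations of 0.80 with the 6 haemocyte markers and 0.76 with the 5 glial markers, and Cpr100A of 0.75 with the 13 chitin genes. For Cpr73D the correlation was 0.77 with nSyb, the only neuronal marker above the threshold, and 0.73 with the mean of sls and up. The other neuronal and flight muscle markers measured were below the threshold, so these values do not stand for neurons or flight muscle. Cpr72Ec had its largest value in size with the chitin genes (-0.54), and its correlation with the photoreceptor markers was 0.15. The values of 0.73 to 0.80 were picked as the highest over all expressed Cpr genes and lists. Others were below 0, such as Cpr62Bb with the Tweedle genes (-0.60), Cpr100A with the fat body markers (-0.53) and Cpr73D with the tanning genes (-0.53). How often other tested genes reach such values was not counted, so they are not read as ties to a cell type. The part of these cell types in the spread of the Cpr genes was not tested. Among all tested genes, those whose deviations were closest to Cpr76Bc were CG9497 (0.95), Nep2 (0.93) and Faa (0.92), to Cpr62Bb CG10467 (0.93), regucalcin (0.91) and pck (0.91), and to Cpr67B CG8329 (0.93), CAH2 (0.92) and CG9676 (0.89), each over the same 15 arrays. For Cpr72Ec they were CG6659 (0.90), Sec63 (0.90) and pcm (0.86). All these closest genes were picked as the highest values among all tested genes. Every expressed Cpr gene had such a best match, from 0.79 for Cpr100A to 0.95 for Cpr76Bc. How high the best match runs for other tested genes was not counted, so the genes named are not read as particular partners of these Cpr genes.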

How the data were processed

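The authors scanned 1 array per pool (GCOS 1.2, per the labels) and deposited linear intensity values per probe set in 75 columns, one per array and algorithm (GC-RMA of R/Bioconductor, used unless another is named, GC-RMA of GeneSpring, MAS5.0, dChip PM-MM and dChip PM). These 5 algorithms repeat the same array and add no replicates. Of 18952 probe sets, 183 controls were left out, and 13647 of the rest had 1 gene. The GeneSpring column is empty at place 3092 and was moved up by 1 place from there (correlation with R/Bioconductor GC-RMA 0.0009 as deposited and 0.988 after). A floor of 1 was applied before taking log2.

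Each comparison was fitted in limma (version 3.58.1, R version 4.3.3) on its 10 arrays, with the replicate number as a block, on the 7631 probe sets with a mean above 100, and every p is two-sided with the Benjamini-Hochberg adjustment where called adjusted. The scripts were tested on simulated data. The paper's methods collect mated and control males as pairs. Same-numbered mated and control arrays deviated together (correlations over probe sets of 0.089 to 0.48). Courted arrays did not pair with control (-0.31 to 0.33) or mated arrays (-0.45 to 0.16) of their number, and were compared without the block too. The Cyber-T style test used a window of 101 and a confidence of 10. Genes named are those above the threshold, those nearest to it, and in each comparison the 5 of lowest p, with up to 4 of highest intensity and 3 of lowest p from a related list. The members and lists were chosen with earlier results of these data known. The RefSeq table of the assembly Release 6 plus ISO1 MT gave symbols and which genes neighbour each other, and no coordinates or sequences are given. Python 3.11.15 (pandas 2.3.3, numpy 2.4.6, matplotlib 3.10.9) served for tables and figures. The number of arrays limits the precision.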

Additional observations from a re-analysis of the deposited data

Results flagged for a closer look

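A pool far from the other 4 of its group was looked for by Dixon's criterion for 12 Cpr genes (the 11 expressed and Cpr47Ea) in 3 groups each, and 4 of 36 sets were past it, where chance gives about 1 in 20. Cpr73D was at 7.78 in mated replicate 1, with the nearest other pool at 8.22. Cpr76Bc was at 7.01 in courted replicate 4 (nearest 7.76) and at 7.79 in control replicate 3 (nearest 7.37). Cpr65Au was at 14.14 in courted replicate 5 (nearest 14.09), a gap that is small because the other 4 pools lay close together. No cause was tested for any of these.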

How the results depend on the processing

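No Cpr gene was called in any comparison under any of the alternatives run. Over all probe sets, where limma called 0, mated against control heads gave 1 without the replicate block, 3 in a joint fit of all 15 arrays, 9 with limma-trend, 37 with the Cyber-T style test and 8 with the mean of 5 algorithms, and mated against courted heads gave 3 without the block, 4 in the joint fit and 3 with the Cyber-T style test. With each replicate number left out the counts were 0 to 1 in both of these comparisons, and 0 under every alternative in courted against control heads. The number of Cpr genes expressed was 60 in dChip PM and 26 in dChip PM-MM, against 11, and lay between 10 and 14 in the others. Of the 15 differences of expressed Cpr genes followed, 13 kept their direction in every alternative. Cpr67B in courted against control heads was 0.0066 in dChip PM and 0.0070 in GeneSpring GC-RMA, and Cpr65Au in mated against courted heads was 0.0024 in MAS5.0. Cpr47Ea, for which alternatives were added after seeing the data, lay between 0.26 and 0.81 in mated against control heads, between 0.19 and 0.71 in mated against courted heads, and in courted against control heads turned to -0.068 without replicate 4. The cause of these changes was not tested. Of the Cpr genes, 48 had a mean intensity under 10, where signal over background limits what can be seen.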
